A study of Mus musculus with 8 samples.

Results

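The complement genes described here were 10 genes whose products take part in the complement system and whose transcripts were counted in tumor tissue: C1qa, C1qb, C1ra, C2, C3, C4b, Cfb, Cfp, Serping1 and C3ar1. They were chosen by name, as components known to be made outside the liver as well as in it. Earlier results of these data were known at that choice. All 10 were found among the 750 immune-related genes of the panel. The samples were peritoneal tumors of MC38 cells, a murine colon cancer line, implanted into the peritoneum of wild-type male C57BL/6 mice of 7 to 8 weeks. From day 7 after implantation the mice received intraperitoneal injections of either PBS or 15 µg of the STING agonist RR-CDA, a synthetic cyclic dinucleotide that activates the stimulator of interferon genes, and the tumors were taken 10 days after the first injection. Total RNA of the whole tumor tissue was measured on a NanoString nCounter panel, which counts color-coded probe pairs bound to each transcript, in 4 tumors per group. The comparison of both groups addresses how the immune transcripts of established peritoneal tumors differ after STING activation.

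Complement is a cascade of plasma proteins that marks surfaces for uptake and lysis. In the classical pathway C1q binds its target, the protease C1r activates C1s, and C1s cleaves C4 and C2; in the alternative pathway factor B and properdin form and hold a second convertase, and both convertases cleave C3, whose fragments coat the target or, as C3a, signal through a receptor on myeloid cells. Hepatocytes make most of the circulating components, while macrophages are a known source of C1q and properdin, and many cell types make C3, factor B and C1 inhibitor under inflammatory stimuli.

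The counts of the 750 genes summed to between 241506 and 414698 per tumor. In 358 genes of moderate abundance (20 to 300 counts on average), PBS controls 2 and 4 differed by less than the sampling noise: their chi-square was 0.404 per degree of freedom, and it was 5.89 to 12.6 for the remaining pairs of same-group tumors. Their counts were averaged and treated as 1 sample, giving n = 3 controls against n = 4 treated tumors. Counts were scaled to the geometric mean of the housekeeping genes in the same sample and are then called normalized counts. The 10 genes had between 48 and 3339 counts in every sample, where the negative control probes gave a background (mean plus 2 SD) of 5.03 to 11.3 counts. Fold changes and p-values are from edgeR's quasi-likelihood test over all 750 genes, with Benjamini-Hochberg adjustment. The labels do not say that each sample was a separate mouse, so the p-values measure only the spread between these samples. The tumors were pooled from 2 experiments, and the experiment of each tumor was not given in the sources used here, so no comparison within an experiment was made.

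A pair of samples stood apart before any complement gene is considered. STING agonist 4 carried transcripts of hepatocytes. Of 16 hepatocyte markers that were looked for beside the complement components, 5 were on the panel (Ambp, F12, Hamp, Saa1 and Crp, the last of which binds C1q and is also counted with the other complement genes below), and their summed level was 1379 normalized counts in STING agonist 4 and between 13.4 and 45.4 in every other sample. Ambp, a plasma protein precursor and the most abundant of the 5, had 762 normalized counts there and 2.44 to 11.7 elsewhere. A list of complement genes known mainly from hepatocytes, with 8 of 9 on the panel (C6, C8a, C8b, C8g, C9, Mbl2, Masp2 and Hc), summed to 457 in STING agonist 4 and to between 49.0 and 88.6 in the others. Of these 8 genes, 5 averaged under 20 counts. The averaged controls 2 and 4 were low in most markers of macrophages. Of 11 such markers 10 were on the panel, with Cd68 as the most abundant. In 8 of them these were the lowest control, with Cd14 and Marco as the exceptions. The 10 summed to 1217 normalized counts in controls 2 and 4, against 2227 in control 1, 3107 in control 3 and 3465, 2385, 2720 and 3280.5 in STING agonists 1 to 4. Ptprc, which encodes the leukocyte antigen CD45, had 42.0 normalized counts in controls 2 and 4, 108 and 111 in controls 1 and 3, and 257, 166, 140.0 and 267 in the treated tumors. In bulk tissue, fewer cells of a type and less RNA per cell cannot be told apart.

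The labels name the tissue as colon, and the markers of epithelium were low: Epcam had 3.70 to 17.5 normalized counts, Muc1 10.2 to 26.9 and Cdh1 11.0 to 34.6, where the background, scaled in the same way, was 4.85 to 11.3. Msln, a marker of the mesothelium that lines the peritoneum, had 91.7 to 237. Which cells made the complement transcripts was not measured.

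**Figure D1:**
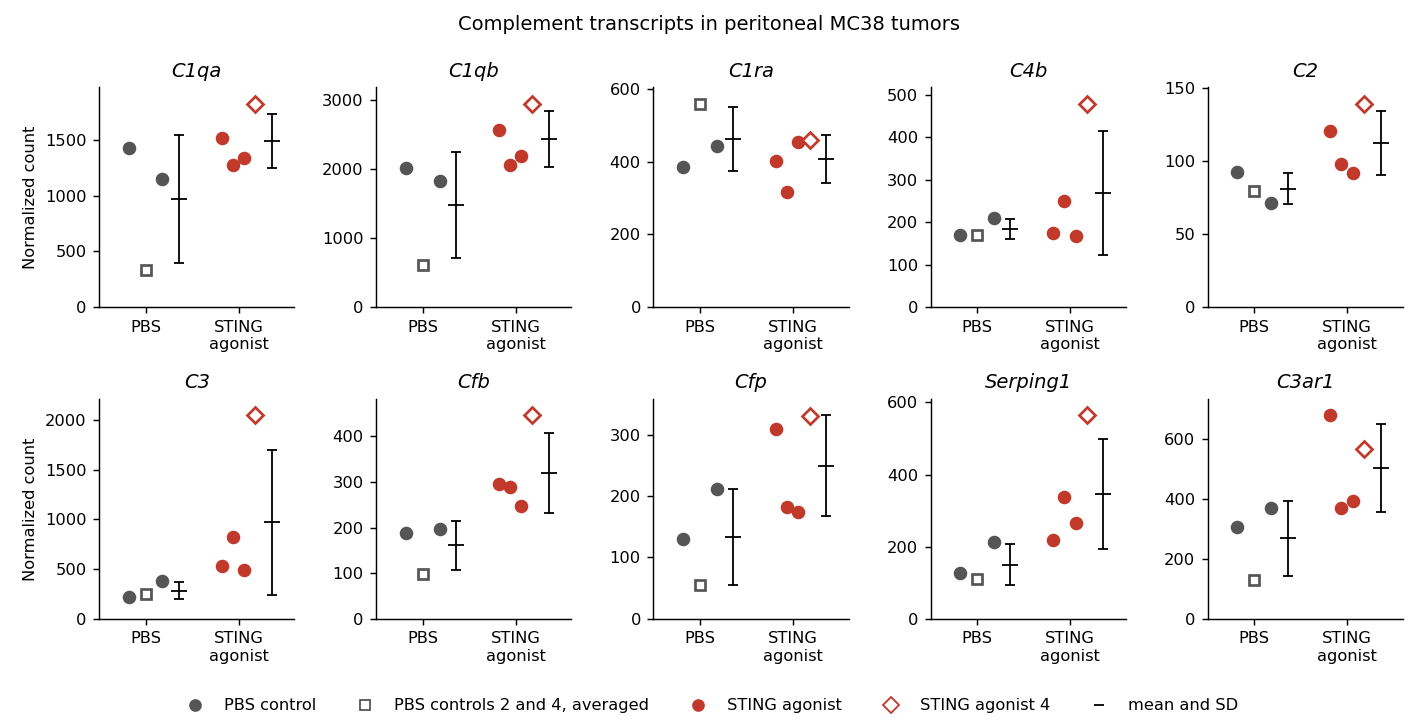
Normalized counts of the 10 complement genes in each sample (vertical axes from 0, a scale of its own for each gene), with the mean and SD of each group, n = 3 and n = 4. All 4 treated tumors lie above every control in C1qb, C3, Cfb and Serping1; the open square of controls 2 and 4 is far below the other controls in C1qa and C1qb, and the open diamond of STING agonist 4 is far above the other treated tumors in C3 and C4b.

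C1qa and C1qb encode chains of C1q, the recognition molecule of the classical pathway. C1qa (NM_007572.2) had 1431 normalized counts in control 1, 1148 in control 3 and 329 in the averaged controls 2 and 4, and 1522, 1279.9, 1338 and 1827 in STING agonists 1 to 4. The groups overlapped, since STING agonists 2 and 3 lay below control 1, and the lowest sample by far was the control that was also low in macrophage markers. On the log2 scale the treated tumors were higher by 0.62 (SE 0.41, adjusted p = 0.450), by 0.51 (SE 0.43, adjusted p = 0.680) without STING agonist 4, by 0.21 without controls 2 and 4, and by 1.01 (unadjusted p = 0.056, edgeR) without control 1.
C1qb (NM_009777.2) had 2008, 1825 and 605 normalized counts in controls 1, 3 and 2 with 4, and 2560.1, 2054, 2183 and 2946 in the treated tumors. All 4 treated tumors lay above every control, although STING agonist 2 exceeded control 1 by little. The controls averaged 1479 ± 763 (SD, n = 3) and the treated tumors 2436 ± 402 (SD, n = 4), which the fit put at a log2 difference of 0.72 (SE 0.36, adjusted p = 0.323). It was 0.61 (SE 0.38) without STING agonist 4, 0.35 without controls 2 and 4 and 1.002 (unadjusted p = 0.042, edgeR) without control 1. The C1qb count was between 1.40 and 1.84 times that of C1qa in every sample, so both chains moved together across the 7 samples.

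C1ra encodes the protease C1r, which activates C1s within the C1 complex. C1ra (NM_023143.3) had 385, 559 and 444 normalized counts in controls 1, 2 with 4 and 3, and 403, 317, 454 and 459 in the treated tumors. It was the only one of the 10 genes with a lower mean after treatment, the groups overlapped, and its highest sample was the one in which C1q was lowest. Its log2 fold change was -0.18 (SE 0.19, adjusted p = 0.670), with -0.24 (SE 0.22) when STING agonist 4 was left out and -0.022 without controls 2 and 4. Positive control scaling put it at -0.12 (unadjusted p = 0.676, edgeR), while 3 other scalings put it lower, at -0.45 with TMM (unadjusted p = 0.063, edgeR), -0.46 with the size factors of DESeq2 (unadjusted p = 0.052, edgeR) and -0.37 with the total count (unadjusted p = 0.054, edgeR).

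C4b and C2 encode the components that form the C3 convertase of the classical pathway. C4b (NM_009780.2) had 169, 170.2 and 210.4 normalized counts in the controls and 175, 251, 168 and 479 in the treated tumors. STING agonist 4 stood 2.42 times above the mean of the other treated tumors, of which STING agonist 2 lay above every control and STING agonists 1 and 3 did not. With all tumors the fitted log2 difference of C4b was 0.55 (SE 0.36, adjusted p = 0.447). It was 0.11 (SE 0.24, adjusted p = 0.921) without that tumor, and turned to -0.090 when TMM scaling was also used. C2 (NM_013484.2) had 92.5, 79.3 and 71.3 normalized counts in the controls and 120.3, 97.8, 92.0 and 139 in the treated tumors. Only STING agonist 3 fell below the highest control, by less than 1 normalized count. For C2 the fitted log2 difference was 0.47 (SE 0.22, adjusted p = 0.296), and it was 0.35 (SE 0.25) without STING agonist 4 and 0.20 with TMM scaling.

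C3 is the component on which all pathways converge. C3 (NM_009778.2) had 217, 247 and 378 normalized counts in controls 1, 2 with 4 and 3, and 528, 819, 492 and 2046 in STING agonists 1 to 4. All 4 treated tumors lay above every control, and STING agonist 4 stood 3.34 times above the mean of the other treated tumors. The mean went from 281 ± 85.2 (SD, n = 3) to 971 ± 731 (SD, n = 4), or to 613 ± 179.5 (SD, n = 3) without STING agonist 4. The log2 fold change of 1.79 (SE 0.52, unadjusted p = 0.0072, adjusted p = 0.181, edgeR) placed C3 at rank 20 of 750 genes by size. That rank is from the fit with STING agonist 4, in which the hepatocyte markers Ambp and Hamp ranked 1 and 3. The log2 fold change of C3 was 1.12 (SE 0.28, unadjusted p = 0.0035, adjusted p = 0.323, edgeR) without STING agonist 4. Against the 3 treated tumors with few hepatocyte transcripts the difference was thus smaller, and it was 0.95 when TMM scaling was also used. The part of hepatocyte RNA in the value of STING agonist 4 was not tested. No other single sample left out moved the log2 fold change of C3 outside 1.63 to 2.07. With the methods' t-test C3 did not pass (unadjusted p = 0.173).

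RefSeq windows from 250 bases before to 50 after the start of a gene were at hand for 5 of the 10 genes (C1qb, C1ra, C3, Cfp and C3ar1). They were searched on both strands for TTCNNNGAA, the interferon-gamma activated site, and the interferon-stimulated response element, which 8.30% and 3.44% of all 32851 windows hold. The first was found in C1ra, 32 bases after the start, and in no other of the 5, and the second in none. Since C3 had the largest log2 fold change of the 10 genes, its 250 upstream bases are shown, from the minus strand at chr17:57228137-57228386 (GRCm38.p6, RefSeq). The capitals mark TTGCGNAA, a pattern of the C/EBP type that 0.798% of all windows hold, 45 to 38 bases before the start. It was taken from 11 further patterns tried after the windows had been read. The same bases also match TTGCNNAA and TTNNGNAA, others of these, which 10.8% and 40.7% of all windows hold. The match is a description of the letters and not a site.
C3: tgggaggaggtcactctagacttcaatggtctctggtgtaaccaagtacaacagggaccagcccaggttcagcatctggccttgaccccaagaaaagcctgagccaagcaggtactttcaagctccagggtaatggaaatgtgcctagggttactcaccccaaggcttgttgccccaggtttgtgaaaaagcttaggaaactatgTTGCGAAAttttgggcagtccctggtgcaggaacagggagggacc

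Cfb encodes factor B, the catalytic subunit of the alternative convertase. Cfb (NM_008198.2) had 189, 99.1 and 196 normalized counts in controls 1, 2 with 4 and 3, and 295, 288, 246 and 446 in STING agonists 1 to 4. The groups did not overlap with or without STING agonist 4. The mean went from 161 ± 54.0 (SD, n = 3) to 319 ± 87.2 (SD, n = 4), higher by 0.98 on the log2 scale (SE 0.29, unadjusted p = 0.0090, adjusted p = 0.181, edgeR). Without STING agonist 4 it was 0.77 (SE 0.28, unadjusted p = 0.022, adjusted p = 0.336, edgeR), and without controls 2 and 4 it was 0.73. Of the 10 genes, Cfb alone kept an unadjusted p under 0.05 in all 22 alternative settings.

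Cfp encodes properdin, which stabilizes the alternative convertase and is made by myeloid cells. Cfp (NM_008823.3) had 130.4, 55.9 and 213 normalized counts in controls 1, 2 with 4 and 3, and 309.5, 182, 175 and 331 in STING agonists 1 to 4. STING agonists 1 and 4 were high and STING agonists 2 and 3 lay between controls 1 and 3, so the groups overlapped. Its log2 fold change was 0.90 (SE 0.43, adjusted p = 0.299), with 0.73 (SE 0.44) when STING agonist 4 was left out and 0.54 without controls 2 and 4. It was 1.41 (unadjusted p = 0.013, edgeR) without control 3 and 1.04 (unadjusted p = 0.049, edgeR) without STING agonist 3.

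Serping1 encodes C1 inhibitor, the serpin that inactivates C1r and C1s. Serping1 (NM_009776.3) had 128, 109.6 and 214 normalized counts in controls 1, 2 with 4 and 3, and 217, 339, 267 and 564 in STING agonists 1 to 4. The groups did not overlap, but control 3 and STING agonist 1 nearly met, and STING agonist 4 stood 2.06 times above the mean of the other treated tumors. The mean went from 150.4 ± 55.8 (SD, n = 3) to 347 ± 153 (SD, n = 4), higher by 1.20 on the log2 scale (SE 0.37, unadjusted p = 0.010, adjusted p = 0.181, edgeR). It was 0.86 (SE 0.30, unadjusted p = 0.019, adjusted p = 0.324, edgeR) without STING agonist 4, and with the methods' t-test Serping1 did not pass (unadjusted p = 0.093).

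C3ar1 encodes the receptor for C3a. C3ar1 (NM_009779.2) had 305, 131 and 371 normalized counts in controls 1, 2 with 4 and 3, and 680, 370.4, 394 and 569 in STING agonists 1 to 4. Here the highest tumor was STING agonist 1 and not STING agonist 4, and STING agonist 2 lay just under control 3. The log2 fold change of 0.90 (SE 0.36, unadjusted p = 0.035, adjusted p = 0.231, edgeR) was 0.84 (SE 0.39, unadjusted p = 0.061, edgeR) without STING agonist 4 and 0.57 (unadjusted p = 0.069, edgeR) without controls 2 and 4, so the unadjusted call was lost with either. It was also lost without control 1 (0.998, unadjusted p = 0.056, edgeR) and without STING agonist 1 (0.72, unadjusted p = 0.089, edgeR). Further losses came with total count scaling (0.65, unadjusted p = 0.102, edgeR), positive control scaling (0.85, unadjusted p = 0.053, edgeR) and the methods' t-test (0.90, unadjusted p = 0.077). The unadjusted call held in 13 of the 22 alternative settings.

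**Figure D2:**
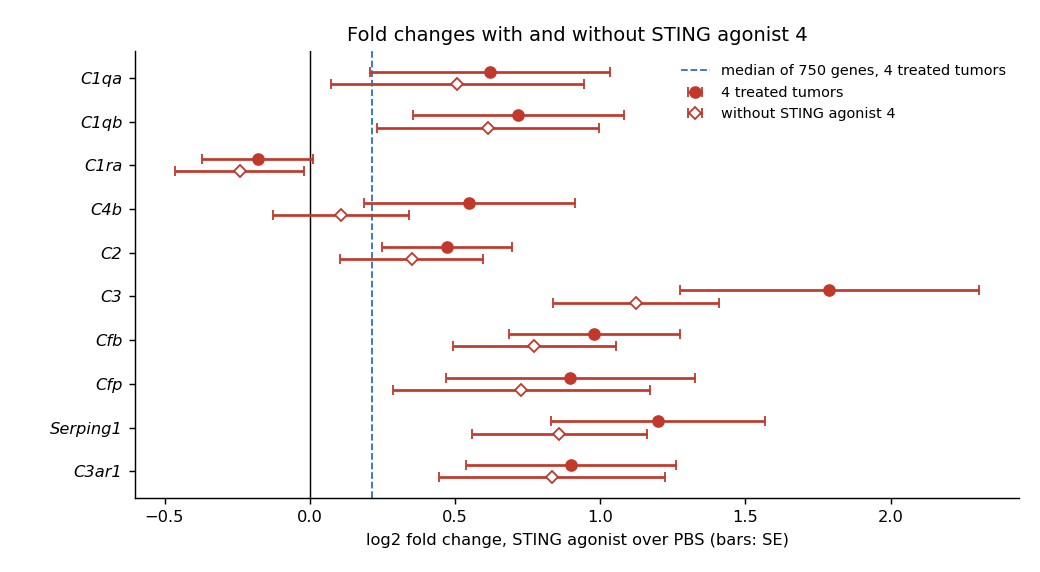
Log2 fold change of each of the 10 complement genes (horizontal axis, STING agonist over PBS, bars are SE of the fit) with 4 treated tumors (filled circles) and without STING agonist 4 (open diamonds), beside the median of all 750 genes (dashed line, 0.21). Leaving out STING agonist 4 moved C3 from 1.79 to 1.12 and C4b from 0.55 to 0.11, and C1qb from 0.72 to 0.61 and C3ar1 from 0.90 to 0.84.

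Read against the whole panel, no gene of the 10 and none of the 750 had an adjusted p under 0.05 in edgeR (0% called). At an unadjusted p under 0.05, 4 of the 10 were higher in the treated tumors (C3, Cfb, Serping1 and C3ar1), beside 17.7% of the panel, and none was lower. Without STING agonist 4 there were 3 (C3, Cfb and Serping1), beside 10.5%. In 4 of the 10 (C1qb, C3, Cfb and Serping1) all treated tumors lay above every control, beside 16.8% of the panel, and without STING agonist 4 it was again 4, beside 18.3%. The Wald test of DESeq2 on the same counts gave an adjusted p under 0.05 for 44 genes of the panel, C3, Cfb and Serping1 among them, and for 5 genes and none of the 10 without STING agonist 4. The median log2 fold change of the 10 was 0.81, against 0.21 over all genes, and 0.67 against 0.17 without STING agonist 4. Under TMM scaling, which centres the panel, both medians moved down, to 0.59 and -0.021, and the panel split into 87 higher and 40 lower genes at an unadjusted p under 0.05 in place of 133 and 10. The median of the 10 exceeded that of the panel by 0.59 with the housekeeping scale and by 0.61 with TMM. It exceeded it by 0.36 without controls 2 and 4, the smallest of the 22 alternatives, and by 0.50 without STING agonist 4. In all 22 alternatives C1ra was lower and the other 9 genes were higher in the treated tumors, except C4b in the setting given above. Most of the panel was also higher, 531 of 750 genes as reported and 498 without STING agonist 4.

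STING agonist 4 had the highest level of all samples in 8 of the 10 genes, every one but C1ra and C3ar1, where 25.6% of the panel was highest in that tumor. The excess over the mean of the other treated tumors was 3.34-fold for C3, 2.42-fold for C4b and 2.06-fold for Serping1. It was 1.61-fold for Cfb, 1.49-fold for Cfp and 1.17-fold to 1.35-fold for the other 5. The 5 hepatocyte markers named above had 71.5 (F12) to 762 (Ambp) normalized counts in STING agonist 4 and at most 11.7 in the other treated tumors, too near the background for an exact fold. By the same measure as the 10 genes the macrophage markers lay between 0.769-fold for Mrc1 and 1.36-fold for Marco. Whether liver RNA made up the excess of any of the 10 was not tested.

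**Figure D3:**
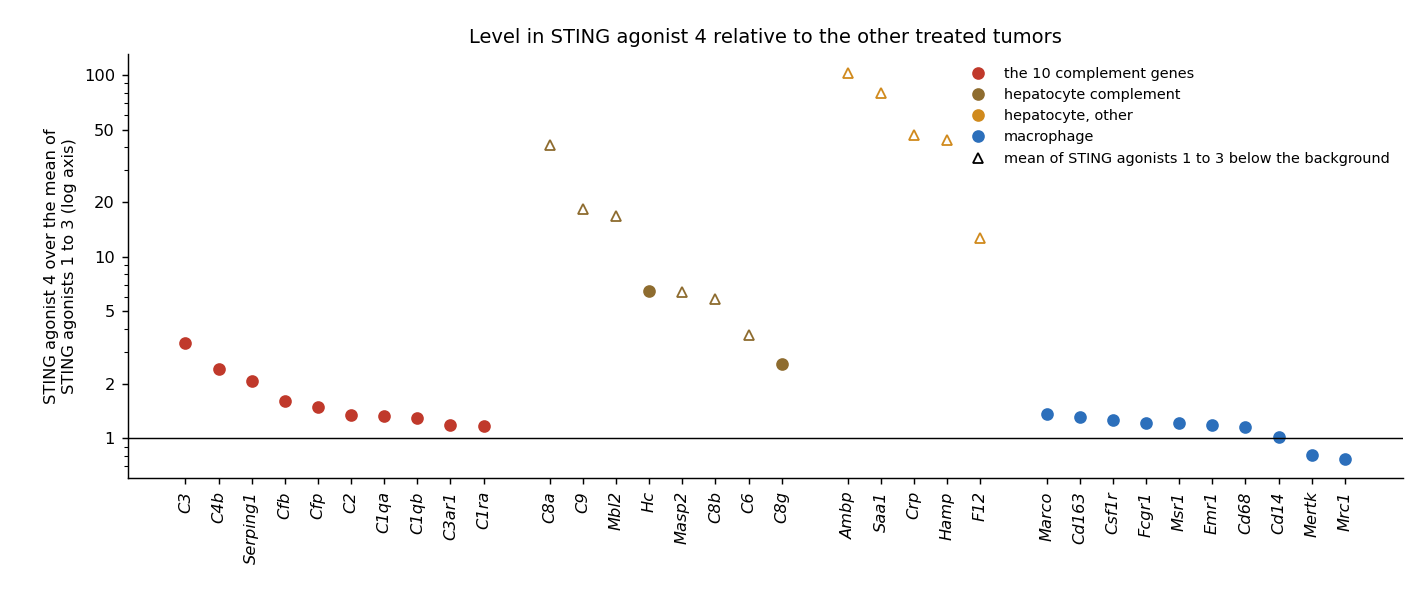
Level in STING agonist 4 divided by the mean of STING agonists 1 to 3 (log axis) for the 10 complement genes, both hepatocyte lists and the macrophage list, 1 point per gene. Open triangles are genes whose mean in STING agonists 1 to 3 is below the background, so that their height is uncertain, and the 10 complement genes lie between 1.17 and 3.34, with C3, C4b and Serping1 the highest of the 10.

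Set against cell type markers within each sample, the 10 genes differed among themselves. The log2 level of each gene minus the mean log2 level of the 10 macrophage markers was taken in every sample, as a description without a test. The difference of C1qa averaged 2.49 ± 0.59 (SD, n = 3) over the controls and 3.05 ± 0.16 (SD, n = 4) over the treated tumors, with overlap, and its SD over the 7 samples was 0.47 where that of C1qa alone was 0.82. C1qa thus varied less relative to the macrophage list than by itself, as did C1qb, C3, Cfb, Cfp, Serping1 and C3ar1. Each of these varied less still relative to Ptprc. That SD was 0.39 for C1qa, 0.32 for C1qb, 0.73 for C3, 0.30 for Cfb, 0.26 for Cfp, 0.56 for Serping1 and 0.23 for C3ar1. For C3ar1 the difference from the macrophage list went from 0.77 ± 0.14 to 1.45 ± 0.30. It went from 0.10 ± 0.31 to 0.81 ± 0.35 for Cfb and from -0.31 ± 0.18 to 0.43 ± 0.37 for Cfp. In these 3 genes every treated tumor lay above every control relative to the macrophage list, beside 6.53% of the panel. In C3 and Serping1 it did not, since the averaged controls 2 and 4, low in macrophage markers, gave the highest control value (1.62 for C3 and 0.46 for Serping1). Without STING agonist 4 the treated tumors were higher on this measure by 0.67 for C3ar1, 0.59 for Cfb and 0.64 for Cfp. For C3 the excess was 0.88 in place of 1.27, and C4b turned from 0.12 to -0.15. The macrophage list itself had a median log2 fold change of 0.28 (0.062 under TMM scaling). Its markers ran from -1.33 for Marco and -1.32 for Cd163 to 0.96 for Csf1r, 1.07 for Fcgr1 and 1.29 for Emr1. Those of C3ar1, Cfp and Cfb were 0.90, 0.90 and 0.98, so the excess over the list mean is not one over every macrophage marker. In 3 of the 10 markers (Csf1r, Emr1 and Fcgr1) every treated tumor lay above every control, beside 16.8% of the panel. At an unadjusted p under 0.05, 2 of 10 genes were higher (Emr1 and Fcgr1), beside 17.7% of the panel. Lower were 2 (Cd163 and Marco), beside 10 of the 750 panel genes. Without STING agonist 4, 1 was higher (Emr1), beside 10.5%, with Fcgr1 at 0.995 (unadjusted p = 0.057, edgeR), and 2 were lower.

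Relative to Ptprc the picture differed. The treated tumors were higher in Ptprc by 1.24 on the log2 scale, with a SE of 0.38 and an adjusted p of 0.181 in edgeR. This is larger than that of every one of the 10 genes but C3. After subtraction of its log2 level, C3 was higher by 0.25 in the treated tumors and at -0.051 without STING agonist 4, and the other 9 genes were lower, from -0.15 for Serping1 to -1.50 for C1ra. All samples of both groups overlapped in these differences except in C1ra, where every treated tumor lay below every control, as in 43.9% of the panel. Against the 6 of 9 stromal markers on the panel, whose most abundant gene was Col3a1, all of the 10 but C1ra were higher in the treated tumors. The excess was 0.52 for C4b to 1.67 for C3, and 0.20 and 1.23 for these without STING agonist 4. Every treated tumor lay above every control in C1qb, C2, C3, Cfb, Serping1 and C3ar1, beside 24.5% of the panel. The stromal markers summed to 13864 to 15201 normalized counts in the controls and 10953 to 13848 in the treated tumors.

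**Figure D4:**
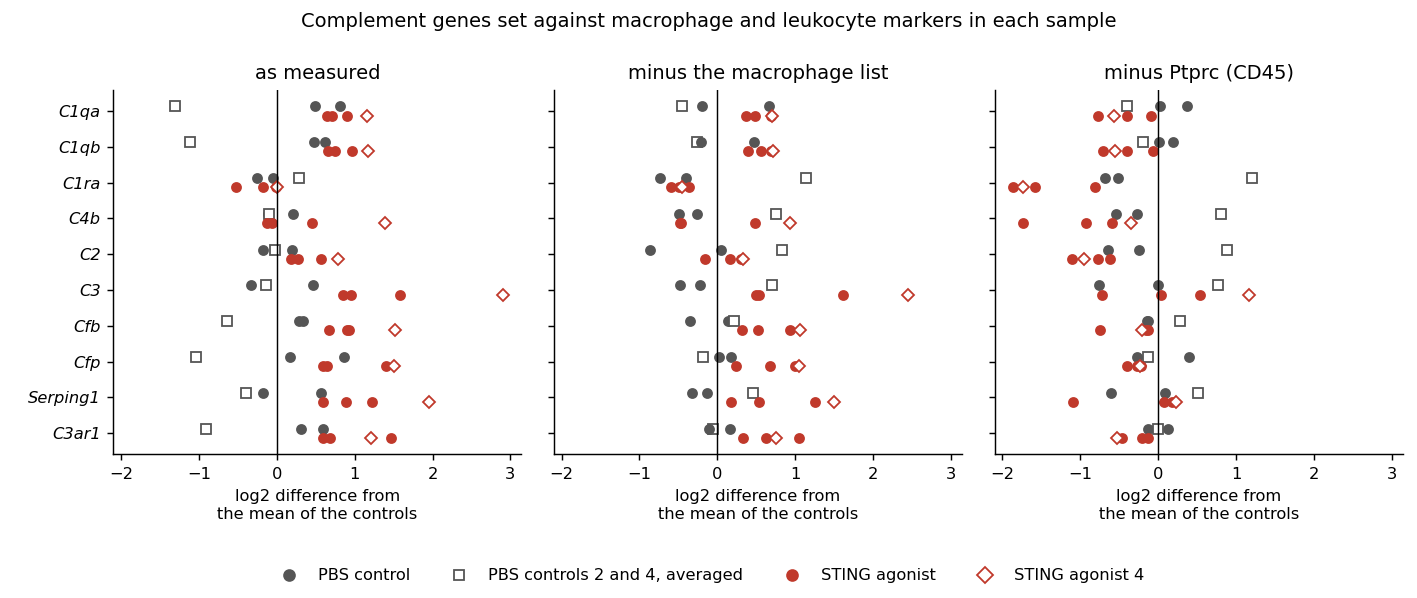
Log2 level of each complement gene in each sample, as measured, minus the mean of 10 macrophage markers, and minus Ptprc (horizontal axes, as the difference from the mean of the 3 controls). Relative to the macrophage list Cfb, Cfp and C3ar1 lie above all controls in the 4 treated tumors, and relative to Ptprc no gene does.

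Ratios within a sample were taken for pairs of complement genes, as a description without a test. The share of all gene pairs on the panel without overlap was not counted. In all, 8 pairs were looked at, picked after the values were seen, and the groups overlapped in 6 of them: C1qb to C1qa, C3 to Cfb, C3 to Serping1, C3ar1 to C1qb, Cfp to C1qb and Cfb to C2. The ratio of C3 to C4b counts was 1.28, 1.45 and 1.79 in the controls and 3.01, 3.27, 2.93 and 4.27 in the treated tumors. It was higher in every treated tumor than in any control, STING agonist 4 or not. C1s1 encodes C1s, the protease activated by C1r, and had 117, 281 and 248 normalized counts in the controls and 368, 263, 294 and 374 in the treated tumors (higher by 0.60 on the log2 scale, SE 0.30, edgeR's adjusted p = 0.323, but by 0.30 without control 1 and by 0.33 with TMM scaling). The ratio of C1ra to C1s1 was 3.30, 1.99 and 1.79 in the controls and 1.10, 1.20, 1.54 and 1.23 in the treated tumors, again without overlap. C1ra and C1s1 are neighbors on chromosome 6 of GRCm38.p6, as are Cfb and C2 on chromosome 17. The ratio of Cfb to C2 was 2.04, 1.25 and 2.75 in the controls and 2.46, 2.95, 2.68 and 3.20 in the treated tumors, with overlap.

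The genes closest in pattern were sought among 519 genes that averaged at least 20 counts, by the root mean square difference of centred log2 levels over the 7 samples. These differences are not scaled to the spread of a gene, whose own root mean square was 0.30 for C2, 0.51 for C4b and 1.02 for C3. For C1qa the closest was C1qb (0.11) and for C1qb it was Lyn (0.09). For C2 the closest were Psmb9, Psmb8 and Tap1 (0.09, 0.10 and 0.11), the same 3 genes as without STING agonist 4. For Cfb they were Il12rb1 and Icam1 (0.10 and 0.12), and for C3ar1 Ccl4 (0.12). For C3 the nearest was Serping1 (0.35), while for Serping1 it was St6gal1 (0.28). Without STING agonist 4 the nearest to C3 was Kdr (0.15), followed by Serping1 (0.22). For C4b the nearest were Cd1d1 and C8g (both 0.26), and Relb (0.11) without that tumor.

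Of 47 other complement genes looked for, 27 were on the panel. At an unadjusted p under 0.05, 2 were higher (Itgax and Itgb2), none was lower and 25 did not pass, so 7.41% were higher beside 17.7% of the panel, and 0 passed after adjustment in edgeR, where DESeq2 called 1. The count of higher genes was 1 without STING agonist 4, beside 10.5% of the panel, where Itgb2 was at 0.57 (unadjusted p = 0.051, edgeR). It was 4 without STING agonist 1, beside 10.3%, and 5 without STING agonist 3, beside 18%. Itgax and Itgb2 encode chains of complement receptors of leukocytes: Itgb2, the shared beta chain, had 128 to 216 normalized counts in the controls and 228 to 323 in the treated tumors (higher by 0.66 on the log2 scale, SE 0.23, edgeR's adjusted p = 0.204), and Itgax had 2.78 to 5.76 and 8.18 to 23.4, in part below the background. The median log2 fold change of the 27 was 0.48, and -0.025 without STING agonist 4, where C8b was lower (-1.36, unadjusted p = 0.016, edgeR) on 3.07 to 13.0 normalized counts, near the background. Cfi (factor I), singled out after its values were seen, had 199 normalized counts in STING agonist 4 and 3.70 to 10.8 elsewhere, near the background. Cfd, the protease that activates factor B, ranged from 3.50 to 162 normalized counts with overlap of the groups. Over the membrane attack components C6, C7, C8a, C8b, C8g, C9 and Hc, values other than those of STING agonist 4 reached at most 24.4 normalized counts.

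The interferon-response genes served as a check of treatment. All 10 of that list were on the panel, with Cxcl10 the most abundant, and they summed to 9189, 6117 and 9345 normalized counts in the controls and 15624, 16058, 11031 and 16334 in the treated tumors, with 8 of 10 higher at an unadjusted p under 0.05, beside 17.7% of the panel, and 7 without STING agonist 4, beside 10.5%. After adjustment 0 passed in edgeR and 5 in DESeq2. STING agonist 4 was near STING agonists 1 and 2 in this sum, but it was the highest sample in 5 of the 10 genes, with Gbp2b 2.59-fold and Cxcl9 1.68-fold above the mean of the other treated tumors. Median log2 fold changes of the other lists were 0.77 for T cells, 0.43 for endothelium, 0.39 for dendritic cells, 0.38 for neutrophils and 0.20 for B cells, and -0.18 for stroma, -0.39 for epithelium and -0.45 for Msln. Under TMM scaling they were 0.52 for T cells, 0.15 for endothelium, 0.15 for dendritic cells, 0.16 for neutrophils, -0.029 for B cells, -0.44 for stroma, -0.63 for epithelium and -0.73 for Msln. Leaving out STING agonist 4 moved T cells to 0.55, neutrophils to 0.61 and epithelium to -0.24. The median over all genes was 0.21, -0.021 under TMM scaling and 0.17 without STING agonist 4. These lists are short, and 2 of 4 T cell, 2 of 4 neutrophil, 3 of 4 dendritic, 3 of 4 B cell and 2 of 3 epithelial markers averaged under 20 counts. Markers of a list also differed, from -0.077 (Cd4) to 1.26 (Cd8a) for T cells and from -0.38 (Flt3) to 2.02 (Itgax) for dendritic cells.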

How the data were processed

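The labels of the samples gave their groups and replicate numbers; age, dose and day of collection came from the study's methods and text. The authors deposited whole-number counts of every probe of the nCounter PanCancer Immune mouse panel, without scaling or background subtraction. From these counts, library sizes were set by the geometric mean of the housekeeping probes, and groups were compared with edgeR 4.0.16 (R 4.3.3) on all 750 genes with no covariate. The rounded mean count of PBS controls 2 and 4 entered as 1 sample. The fit was run on 5 sets of simulated counts with 200 changed genes, drawn as higher or lower at random. They held no outlying sample, so they say nothing of the effect of STING agonist 4. A pseudocount of 1 was added before log2. The named genes were the 10 complement genes, other complement genes with an unadjusted p under 0.05 or no overlap, and nearest genes. The 3 nearest genes of each of the 10 were sought, but only some of them are given above. C1s1, Cfd and Cfi were named after their values were seen; 1 further gene so chosen is not reported here. Members and lists were chosen with earlier results of these data known. Alternatives included DESeq2 1.42.0, limma 3.58.1, the methods' t-test, other scalings, each sample left out, and 3 settings without STING agonist 4 that were added after seeing the data.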

Additional observations from a re-analysis of the deposited data

Results flagged for a closer look

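Among the 4 treated tumors, STING agonist 4 stood far above the rest in genes known from hepatocytes. Its distance to the next tumor, divided by the span from lowest to highest treated tumor, exceeded Dixon's 95% critical value for groups of 4 in 11 of 28 genes looked at. Chance passes about 1 in 20 of such groups, but the liver genes were listed with earlier results of these tumors known and Cfi was added once its level here was known, so the count describes this tumor and tests nothing. Among hepatocyte markers this quotient was 0.988 for Ambp, 0.951 for F12, 0.982 for Hamp, 0.989 for Saa1 and 0.975 for Crp. Among the listed complement genes known mainly from liver it was 0.987 for C8a, 0.859 for C8b, 0.884 for C8g, 0.975 for C9 and 0.938 for Mbl2, while C6, Masp2 and Hc of the same list did not exceed the critical value. It was 0.971 for Cfi. In 0 of the 10 complement genes described in the Results was the critical value exceeded. The highest quotients among these were 0.789 for C3, 0.753 for Cfb and 0.734 for C4b, each with STING agonist 4 at the top. The controls, a group of 3, were not examined in this way.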

How the results depend on the processing

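Of the 10 complement genes at an unadjusted p under 0.05, 4 passed as reported. The count was 7 with controls 2 and 4 as separate samples, beside 186 genes (24.8%) of the panel, and 1 (Cfb) with the methods' t-test, and 3 to 5 with each sample left out. With the replicate block it was also 7, beside 159 genes (21.2%) of the panel. In that setting the number in the labels pairs the tumors, and controls 2 and 4 are separate. The labels do not say that the numbers pair them. The deviations of same-numbered tumors correlated at -0.058, -0.087, -0.28 and -0.12. Since differently numbered tumors were not compared in this way, these values cannot decide whether the numbers pair them. Over the panel, 133 genes (17.7%) were higher as reported. There were 81 with the size factors of DESeq2 (45 lower), 87 with TMM scaling (40 lower), 68 with the total count (31 lower), 87 with the methods' t-test, and 77 to 153 with each sample left out (77 without STING agonist 1, 79 without STING agonist 4). Without STING agonist 4 there were 50 under TMM scaling and 79 with the Wald test of DESeq2. The adjusted count, 0 in edgeR, was 44 with the Wald test, 5 with that test without STING agonist 4, and 0 to 7 with each sample left out (7 without STING agonist 3, 1 without PBS control 3). Under TMM scaling without STING agonist 4, C4b turned to -0.090. The median log2 fold change of the 10 genes lay between 0.48 and 1.17 over the 22 alternatives. The cause of these shifts was not tested. Cfp had the lowest count of the 10 genes, 48 in controls 2 and 4, and genes near the background, as most liver components were outside STING agonist 4, carry a large counting error.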
